A study of Rattus norvegicus with 9 samples.

Results

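Lungs of rats exposed to cigarette smoke (CS) were compared with lungs of control rats, on 3 arrays labelled as CS and 3 labelled as control, which are 6 of the 9 arrays of the series. All rats were male Wistar rats, given as 6 to 8 weeks old without saying at which point. CS was given for 90 days as a model of chronic obstructive pulmonary disease (COPD), with archiving after 90, 91 and 92 days for CS 1, CS 2 and CS 3. The control rats inhaled NS, which the labels do not spell out, for 90 days. How the smoke was given, its dose and the lung findings are not stated in the labels. Whole-lung RNA was hybridised to a custom 1-colour Agilent array with 38804 probes besides control probes, of which 37526 were tested. In whole lung, fewer cells of a type and less RNA per cell cannot be told apart.

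Cigarette smoke carries oxidants, aldehydes and polycyclic hydrocarbons to the airway lining and the alveoli. Epithelial cells and macrophages answer with enzymes that oxidise and conjugate foreign compounds, with antioxidant enzymes, and with cytokines that recruit further immune cells. Long exposure is known for mucus-producing airways, inflammation and loss of alveolar walls, changes that are seen in COPD.

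Probe names fall into classes. The largest class, ASRN6AP, had 28287 probes, followed by ASRNV with 5519 and ASRN6LNC with 3855. A further 959 names begin with uc, the prefix used for ultraconserved elements, which are stretches of DNA that are identical between distant mammals. Another 134 carry other custom names. Only catalogue probes (50 names beginning A_) carry accessions, except A_44_P913360 and A_44_P914086, which hold their probe name instead. RefSeq symbols were matched for 30 of the 50, 29 of which name protein-coding genes and 1 of which is a placeholder. Of the lists of lung cell type markers and smoke-response genes, the named probes held Cyp2e1 and Nat1 (xenobiotic metabolism) and Nlrp3 (inflammation). No defining lung cell marker was among them, so the labelled tissue could not be checked and no list was described as a group. What the ASRN6AP, ASRNV and ASRN6LNC names stand for is not given in the sources used here, so their probes are described by name.

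The arrays stood apart in ways that go with the groups. All 3 control arrays had 1 scan date in the file headers, CS 2 and CS 3 shared another, and CS 1 had a date that no other of the 6 had. Arrays with the same scan date are called a slide below, and slide barcodes were not compared. Slide and exposure therefore cannot be told apart. CS arrays were dimmer before any scaling between arrays. The 75th percentile of the background-subtracted scanner signal was 210 ± 13.2 in CS (SD, n = 3), where control arrays gave 348 ± 7.62 (SD, n = 3). In the authors' deposited log2 values, whose distributions were equalised between arrays, the median SD of a probe was 0.17 over the CS arrays and 0.07 over the control arrays, and the CS SD was the larger at 81.3% of probes. Any pair of control arrays differed by a robust SD of 0.10 to 0.13 log2 units, CS 2 and CS 3 by 0.24, and CS 1 from CS 2 and CS 3 by 0.35 and 0.27. The labels call the arrays biological replicates. The tests below take the 3 control arrays as separate samples and, unless stated, use the deposited log2 values, a linear model across all tested probes (limma) and a Benjamini-Hochberg adjusted p below 0.05.

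The comparison asked which lung transcripts differ after 90 days of CS. Of the 29 named genes, 6 rose, 13 fell and 10 did not pass, where 33.4% of all tested probes passed (17.3% higher and 16.1% lower). The median log2 change was −0.24 over the 29 genes and 0.06 over all tested probes. Each gene's probe was spotted 10 times per array, with a median SD between spots of 0.07 to 0.15 log2 units over the 50 catalogue probes. In 24 of the 29 genes the CS and control arrays did not overlap, against 50.5% of all tested probes. These are unlike sets, as only 184 probes had repeated spots. Catalogue probes were also brighter, with a median level of 8.34 against 6.11, and had a median control SD of 0.036 against 0.070. The part of signal level and spot number in these shares was not tested.

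Of 7 enzyme genes of xenobiotic, energy and lipid metabolism, 5 fell, 1 rose and 1 did not pass. Of all 29 named genes 13 fell, and 16.1% of all tested probes were lower. Whether genes of any role differed from the other named genes was not tested. Cyp2e1 encodes a cytochrome P450 that oxidises ethanol, nitrosamines and other small molecules. Its log2 signal was 10.55, 10.69 and 10.11 on CS 1, CS 2 and CS 3 and 11.41, 11.40 and 11.44 on the control arrays. All CS arrays lay below all control arrays, and CS 3 was the lowest. The difference was 1.95-fold (log2 change −0.97, SE 0.15, adjusted p = 0.00299). Nat1 encodes an arylamine N-acetyltransferase, which conjugates aromatic amines such as those in smoke. It read 9.22, 9.22 and 9.32 on CS arrays and 9.63, 9.60 and 9.55 on control arrays, again with no overlap. The fall was small (log2 change −0.34, SE 0.08, adjusted p = 0.0147) and kept its size but not its call without control 1 (−0.33, adjusted p = 0.0772), control 2 (−0.34, 0.0738) or control 3 (−0.36, 0.0501).

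Pdk3 encodes a kinase that switches off pyruvate dehydrogenase and so keeps pyruvate out of the mitochondrial cycle. It read 6.88, 6.65 and 6.96 on CS arrays and 7.81, 7.81 and 7.76 on control arrays. The difference was 1.95-fold (log2 change −0.96, SE 0.10, adjusted p = 0.000675). Ldha, a subunit of the lactate dehydrogenase that turns pyruvate into lactate, read 11.04, 11.28 and 10.92 on CS arrays and 11.82, 11.77 and 11.76 on control arrays. The CS lungs were 1.63-fold lower (log2 change −0.70, SE 0.11, adjusted p = 0.00290). In both genes every CS array lay below every control array, but the CS arrays took different orders, CS 2 being the lowest for Pdk3 and the highest for Ldha.

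Pld1 encodes phospholipase D1, which makes phosphatidic acid at membranes. It read 8.40, 8.24 and 8.39 on CS arrays and 9.09, 9.05 and 8.99 on control arrays, a 1.62-fold difference (log2 change −0.69, SE 0.09, adjusted p = 0.00121). Napepld, whose enzyme also cleaves phospholipids and releases N-acylethanolamines, read 4.60, 4.47 and 4.57 against 4.42, 4.47 and 4.39. The groups overlapped and the difference did not pass (log2 change 0.12, SE 0.08, adjusted p = 0.298), although it passed at 0.68 under 75th percentile scaling of the scanner signal. Under that scaling the median change over all probes of like signal (bin 2 of 10) was 0.61. Enpp1, a membrane enzyme that cleaves extracellular ATP to pyrophosphate, rose. Its log2 signal was 10.19, 9.83 and 9.93 on CS arrays and 9.59, 9.62 and 9.57 on control arrays, with CS 1 the highest. The 1.31-fold rise passed (log2 change 0.39, SE 0.11, adjusted p = 0.0308) but not without CS 3 (0.0582), control 1 (0.101), control 2 (0.0907) or control 3 (0.102), and after centring on the median it was 0.05.

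Promoters of the most lowered enzyme genes are shown because smoke constituents are known to act through the aryl hydrocarbon receptor, whose core element is GCGTG, and through oxidant-responsive elements of the form TGACNNNGC. Capitals mark a core match on either strand in RefSeq windows from 250 bases before to 50 after the start (build GRCr8). Pdk3 lies at chrX:62547322-62547621 (minus strand), and Cyp2e1 at chr1:205269717-205270016 (plus strand).
Pdk3: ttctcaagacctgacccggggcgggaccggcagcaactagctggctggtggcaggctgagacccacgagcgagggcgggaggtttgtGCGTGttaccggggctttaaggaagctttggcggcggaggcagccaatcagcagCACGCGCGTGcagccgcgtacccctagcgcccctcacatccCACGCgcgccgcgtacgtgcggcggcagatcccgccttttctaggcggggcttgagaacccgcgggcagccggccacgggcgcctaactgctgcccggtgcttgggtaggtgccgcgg
Cyp2e1: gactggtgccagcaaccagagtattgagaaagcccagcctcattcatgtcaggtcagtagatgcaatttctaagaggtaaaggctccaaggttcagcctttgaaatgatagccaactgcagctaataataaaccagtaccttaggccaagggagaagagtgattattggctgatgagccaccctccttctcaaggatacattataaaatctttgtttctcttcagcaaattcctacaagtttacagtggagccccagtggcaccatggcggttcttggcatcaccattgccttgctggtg
The Pdk3 window holds 4 GCGTG matches and the Cyp2e1 window 0. Of 21 named genes with a window, 10 held GCGTG (1 of 4 that rose, 5 of 9 that fell and 4 of 8 that did not pass), against 29.7% of 33469 windows in the table. TGACNNNGC occurred in 2 of the 21 (Ndfip2 and Napepld) and in 12.1% of all windows. A match is a run of letters only, and the array data do not bear on binding.

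Of 4 genes of ubiquitin ligases and their adaptors, 3 fell and 1 did not pass. For comparison, 13 of all 29 named genes fell, and 16.1% of all tested probes were lower. Mex3c, an RNA-binding ubiquitin ligase that acts on messenger RNAs, had the largest fall of the named genes. It read 5.78, 5.97 and 6.01 on CS arrays and 7.08, 7.06 and 7.13 on control arrays. The gap between the groups was several times the range within either, and the difference was 2.25-fold (log2 change −1.17, SE 0.09, adjusted p = 0.000250). Ndfip1 and Ndfip2 encode membrane adaptors that bring Nedd4-family ligases to their targets. Ndfip2 read 10.51, 10.37 and 10.51 against 11.09, 11.08 and 11.03 (log2 change −0.60, SE 0.08, adjusted p = 0.00185). Ndfip1 read 11.24, 11.22 and 11.38 against 11.82, 11.81 and 11.84 (log2 change −0.54, SE 0.08, adjusted p = 0.00274). The paralogs therefore fell by like amounts, 1.52-fold and 1.46-fold, and CS 2 was the lowest array in both. Trim2, another ubiquitin ligase gene, read 9.76, 9.35 and 9.75 against 9.91, 9.87 and 9.86 and did not pass (log2 change −0.26, SE 0.12, adjusted p = 0.152), with CS 2 far below the other CS arrays. After centring on the median it passed (−0.58), as did Ptk2b (−0.46), Med16 (−0.58) and Cse1l (−0.51).

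Among ligands, receptors, transporters and sensors, 3 of 6 rose, 1 fell and 2 did not pass. Over all 29 named genes 6 rose and 13 fell, and 17.3% of all tested probes were higher and 16.1% lower. Slc28a2, a sodium-driven transporter that takes up purine nucleosides, read 10.61, 10.83 and 10.49 on CS arrays and 10.12, 10.14 and 10.12 on control arrays. It had the largest rise of the named genes, 1.43-fold (log2 change 0.52, SE 0.11, adjusted p = 0.00943), and passed in each fit that left out an array. It did not pass with the slide as a random block (adjusted p = 0.0722) or after centring on the median, where it was 0.22. Fgf2, a growth factor for fibroblasts and endothelium, read 4.98, 4.66 and 4.55 on CS arrays and 4.17, 4.24 and 4.30 on control arrays. CS 1 was the highest and CS 3 lay closest to the controls. The rise passed (log2 change 0.49, SE 0.12, adjusted p = 0.0212) but not without control 1 (0.0854), control 2 (0.0728) or control 3 (0.0578). Gdnf, a neurotrophic factor, read 5.56, 5.52 and 5.33 against 5.14, 5.14 and 5.12 (log2 change 0.34, SE 0.09, adjusted p = 0.0255), and did not pass without control 1 (0.0937), control 2 (0.0948) or control 3 (0.0892). Both growth factor probes are dim, in bins 2 and 4 of 10 bins of rising signal, and neither passed after normexp background correction (log2 changes of 0.11 and 0.12). Under 75th percentile scaling both passed with larger rises, 1.04 for Fgf2 (adjusted p = 0.00814) and 0.84 for Gdnf (0.00407). Dim probes rose as a whole under that scaling, with a median change of 0.61 over bin 2 and 0.55 over bin 4. The E1A control spots, of viral sequence, averaged 5.11 ± 0.12 in CS (SD, n = 3), against 4.93 ± 0.05 in the controls (SD, n = 3), and the part of this difference in these rises was not tested.

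Nlrp3, the sensor that starts assembly of an inflammasome, was the only gene of the group that fell. It read 5.13, 5.36 and 5.15 on CS arrays and 5.59, 5.53 and 5.50 on control arrays (log2 change −0.33, SE 0.09, adjusted p = 0.0329). Its direction is not settled: under 75th percentile scaling the change was 0.17 (adjusted p = 0.180). The median change over all probes of its bin of signal (bin 4) was 0.55 under that scaling. It also did not pass without CS 3 (0.0840), control 1 (0.129), control 2 (0.110) or control 3 (0.0842). Lhcgr, the luteinizing hormone receptor gene, read 4.41, 4.12 and 4.13 against 3.90, 4.02 and 3.97 and did not pass (log2 change 0.26, adjusted p = 0.0993), nor did P2rx2, which encodes a channel opened by ATP (−0.07, adjusted p = 0.725). Lhcgr passed at 0.84 under 75th percentile scaling (0.0188), where the median over all probes of its bin (bin 1) was 0.68. Lhcgr and P2rx2 lie in the dimmest 2 bins of signal.

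Of 7 genes of adhesion, cytoskeleton, centrosome and signalling, 3 fell, 1 rose and 3 did not pass. The counts over all 29 named genes were 13 falls and 6 rises, beside 16.1% lower and 17.3% higher over all tested probes. Ppp2r2b, one of the regulatory subunits that steer protein phosphatase PP2A and best known from neurons, read 5.81, 6.06 and 5.80 on CS arrays and 6.78, 6.78 and 6.72 on control arrays. The CS arrays were 1.82-fold lower (log2 change −0.86, SE 0.10, adjusted p = 0.000912). Cdh2, which encodes N-cadherin of cell junctions, read 6.16, 6.40 and 5.95 against 6.95, 6.90 and 6.87, a 1.67-fold fall (log2 change −0.74, SE 0.12, adjusted p = 0.00401). CS 2 was nearest to the control arrays in both genes. Pdcd10, which supports endothelial junctions, read 11.16, 10.93 and 11.23 against 11.45, 11.46 and 11.45 (log2 change −0.35, adjusted p = 0.0325) and did not pass without control 1 (0.107), control 2 (0.112) or control 3 (0.0987). Odf2l, a gene of the centrosome and the base of cilia, rose from 7.35, 7.37 and 7.60 on control arrays to 7.98, 7.79 and 7.99 on CS arrays. The 1.39-fold difference passed (log2 change 0.48, SE 0.11, adjusted p = 0.0134), though not without control 1 (0.0652) or control 2 (0.0648), and after centring on the median it was 0.22 (0.0865). The neuronal genes Map2 (−0.16) and Dlg4 (−0.11) and the focal adhesion kinase relative Ptk2b (−0.07) did not pass (adjusted p from 0.145 to 0.659).

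RNA-related genes went both ways. Pop7, a protein subunit of ribonuclease P, which trims transfer RNA, read 10.58, 10.50 and 10.46 on CS arrays and 10.06, 10.03 and 9.99 on control arrays. It was 1.40-fold higher in CS (log2 change 0.49, SE 0.08, adjusted p = 0.00373) and passed in each fit that left out an array, but not after centring on the median (0.21, adjusted p = 0.136). Eif4b, a factor that helps unwind messenger RNA for translation, read 9.90, 9.63 and 9.67 against 10.16, 10.21 and 10.25 (log2 change −0.47, SE 0.10, adjusted p = 0.0101). Med16, a Mediator subunit, did not pass (log2 change −0.24, adjusted p = 0.110), although it did without CS 1 (0.0148). Of the remaining named genes, Cse1l, a nuclear export factor for importin alpha, had a change of −0.23 (adjusted p = 0.0817, and 0.0306 without CS 1), and Magoh, a core protein of the exon junction complex, one of 0.09 (adjusted p = 0.414). The 10 falling genes, Mex3c, Cyp2e1, Pdk3, Ppp2r2b, Cdh2, Ldha, Pld1, Ndfip2, Ndfip1 and Eif4b, passed whichever array of the 6 was left out and under 75th percentile, quantile, median and normexp processing of the scanner files. With the slide as a random block 9 of these and Pop7 passed, while Eif4b did not (adjusted p = 0.0596), nor did the other genes called in the deposited values (0.0696 for Fgf2 to 0.168 for Pdcd10).

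**Figure D1:**
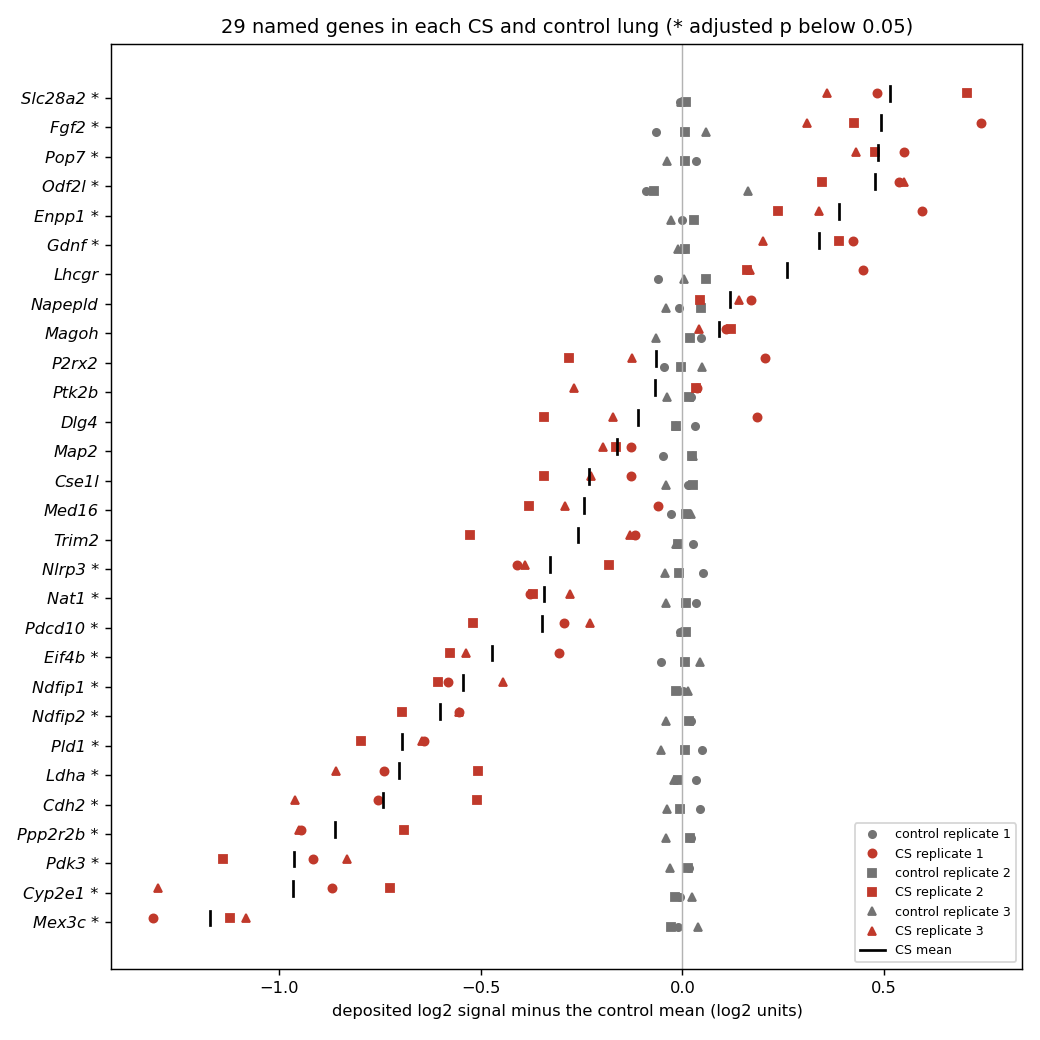
Deposited log2 signal of each named gene on each array, minus the mean of the control arrays, with CS arrays in red, control arrays in grey and the CS mean as a black bar. The CS means run from −1.17 (Mex3c) to 0.52 (Slc28a2), and control arrays lie closer together than CS arrays in most genes.

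Of the 20 catalogue probes without a RefSeq match, 18 had deposited values, of which 1 was higher, 7 were lower and 10 did not pass, and the other two had scanner values only. Of these, A_44_P914086 was lower in CS under each of the 4 scanner processings (log2 change −1.21, adjusted p = 0.000251 with quantile normalization, and −0.40 with normexp), and A_44_P913360 passed under 75th percentile scaling alone (0.46, adjusted p = 0.0223). The probe for ENSRNOT00000020272 had the largest fall of all catalogue probes. It read 8.41, 8.00 and 8.17 on CS arrays and 10.02, 9.98 and 9.99 on control arrays (log2 change −1.80, SE 0.12, adjusted p = 0.000140), which exceeds the fall of Mex3c. The other falls were those of TC643113 (−0.86), XR_146859 (−0.81), XM_006249991 (−0.65), ENSRNOT00000075517 (−0.52), M31178 (−0.48) and TC585145 (−0.45). With the slide as a random block TC643113, XR_146859 and XM_006249991 passed. ENSRNOT00000075517 (adjusted p = 0.0528), M31178 (0.109) and TC585145 (0.0598) did not. The placeholder gene LOC108352165 also fell, reading 5.49, 5.46 and 5.73 on CS arrays and 6.08, 6.06 and 6.01 on control arrays (log2 change −0.49, adjusted p = 0.00874). Its change was −0.06 under 75th percentile scaling (adjusted p = 0.711), and it did not pass with the slide as a random block (0.0598). The one that rose was for ENSRNOT00000039569, at 7.56, 7.96 and 7.55 against 7.15, 7.17 and 7.22 (log2 change 0.51, SE 0.12, adjusted p = 0.0184). The probe for ENSRNOT00000087773 showed how far CS lungs can differ from each other, with 7.28, 8.35 and 6.34 on CS arrays around control readings of 7.90, 7.91 and 7.91, and it did not pass (adjusted p = 0.338).

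Over all 37526 tested probes, 12526 passed, 6491 higher and 6035 lower in CS. The split depends on the scaling. Under 75th percentile scaling of the scanner signal 22495 passed (60.2%), 18709 higher and 3786 lower, with a median change of 0.44. Of the probes called in the deposited values, 10172 passed there with the same sign and 0 with the opposite sign. Centring on the median gave 5112 higher and 7891 lower (34.8%). With the slide as a random block 5948 passed (15.9%), and with the 3 control arrays merged into 1 sample 532 passed in limma (1.42%), among them 0 of the 29 named genes (lowest adjusted p = 0.0542, Mex3c), of which 12 had an unadjusted p below 0.05. The other fits called 33.3% with quantile normalization, 30.6% with normexp, 31.9% without a filter on dim probes, 34.0% when detection on all 6 arrays was required, 25.3% with all 9 arrays, 34.4% with trended robust variance, 52.2% with array weights and 25.2% with the replicate number as a block. Without control 1, 2 or 3 the counts were 7334, 7279 and 7972.

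The rises and falls differed in size. Of the called probes, 2355 rose and 3423 fell by at least 1.5-fold, 518 rose and 1296 fell by at least 2-fold (4.83% of tested probes together), and 20 rose and 88 fell by at least 8-fold. The count at 8-fold was lower for rises under each scaling and left-out array tried, from 4 against 78 with the control arrays as 1 sample to 39 against 77 without CS 3. It was 11 against 112 without CS 1, 9 against 94 without CS 2, and 9 against 96, 9 against 92 and 8 against 87 without control 1, 2 and 3. At 2-fold the order turned under 75th percentile scaling (1658 rises and 890 falls). Large falls and large rises also differed in how alike the CS arrays were. In the 88 falls the median SD over CS arrays was 0.37, and 1 had an SD above 1. In the 20 rises the median SD was 2.45, and 16 had an SD above 1. CS 2 was the highest CS array in all 20 rises and CS 3 the lowest in 19. Over all tested probes 124 had a CS SD above 1 (0.33%), of which 30 rose, 30 fell and 64 did not pass. In these 124, CS 2 was the highest CS array in 87 and CS 3 the lowest in 96, so this order was not particular to the rises. The median level of the 20 rises was 10.83 on CS 1, 11.82 on CS 2 and 7.31 on CS 3, against 5.42 to 5.53 on control arrays. These sets were chosen after their values were seen.

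**Figure D2:**
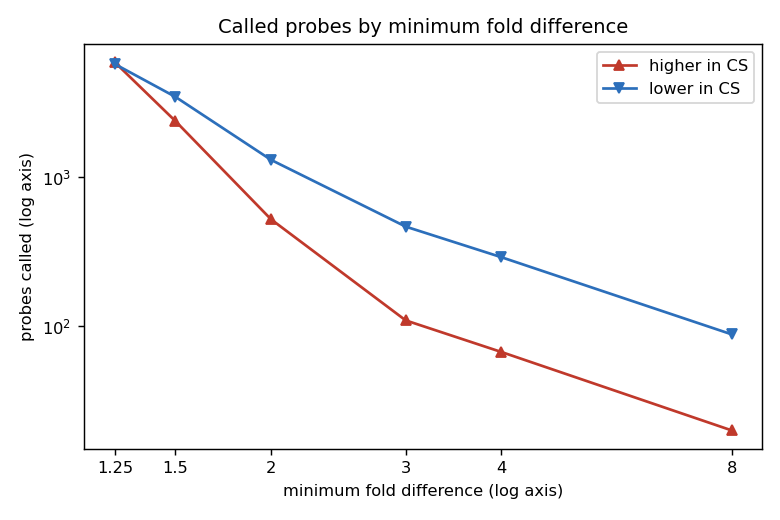
Number of probes that passed and rose or fell by at least the fold on the horizontal axis, both axes logarithmic. The curves separate from 2355 rises and 3423 falls at 1.5-fold to 20 rises and 88 falls at 8-fold.

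In the ASRN6AP class 5403 of 27740 tested probes rose and 4802 fell, 36.8% together. The largest rise was that of ASRN6AP1B100029412V3, at 14.20, 14.76 and 9.28 on CS arrays and 6.25, 6.22 and 6.31 on control arrays (log2 change 6.48, SE 1.30, adjusted p = 0.00870). ASRN6AP1B100016857V3 showed the same order of arrays, with 14.08, 15.09 and 9.72 against 6.98, 6.91 and 6.83, as did ASRN6AP1B100084747V3, with 9.47 on CS 1, 10.56 on CS 2 and 5.0 on CS 3 against 3.07, 3.63 and 2.96. CS 3 was thus raised far less than CS 1 and CS 2 in each of them. The largest falls were more even across the CS arrays. ASRN6AP1B100025801V3 read 4.23, 5.36 and 5.33 on CS arrays and 11.37, 11.46 and 11.32 on control arrays (log2 change −6.41, SE 0.29, adjusted p = 3.8e-05). ASRN6AP1B100013940V3 fell by 5.38 and ASRN6AP1B100054367V3 by 5.11 log2 units.

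In the ASRNV class 502 of 5188 probes were higher and 712 lower (23.4% together), a balance that turned to 2641 higher and 346 lower under 75th percentile scaling. Its share of falls of at least 8-fold was 0.598% of tested probes, against 0.159% in ASRN6AP, 0.333% in ASRN6LNC and 0.122% (1 probe) in uc. Over all classes there were 88 such falls among 37526 tested probes. Whether the classes differed in this share was not tested. ASRNV20034064V3 read 6.81, 7.25 and 7.49 on CS arrays and 12.13, 12.19 and 12.25 on control arrays (log2 change −5.01, SE 0.17). ASRNV20032199V3 read 3.36, 3.56 and 3.65 against 8.18, 8.28 and 8.21. ASRNV20028188V3 read 2.32, 2.98 and 2.36 against 7.79, 7.89 and 7.94, and was well above background on 1 of the CS arrays only. Rises were smaller: ASRNV20034815V3 rose by 2.85 (7.66, 8.05 and 7.63 against 5.19, 4.89 and 4.71), ASRNV20033531V3 by 2.85 and ASRNV20030679V3 by 2.03 log2 units.

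In ASRN6LNC 479 of 3599 probes were higher and 387 lower (24.1%). ASRN6LNC1A100003394V3 had among the tightest large changes, reading 16.29, 16.26 and 16.29 on CS arrays and 13.27, 13.29 and 13.29 on control arrays. The CS lungs were 7.95-fold higher (log2 change 2.99, SE 0.07, adjusted p = 6.8e-06). Under 75th percentile scaling the change was 3.01 (adjusted p = 0.000184). The CS level is near the top of the deposited scale, where the highest mean level was 16.52. The part of equalising the arrays in the small spread was not tested. ASRN6LNC1A100000251V3 rose more but less evenly, to 8.51, 9.35 and 8.14 from 5.37, 5.34 and 5.47, and ASRN6LNC1A100026743V3 rose by 2.62 log2 units. Falls were led by ASRN6LNC1A100006728V3, at 5.88, 7.37 and 7.21 against 11.33, 11.34 and 11.42, where CS 1 was the lowest. ASRN6LNC1A100122152V3 fell by 3.81 and ASRN6LNC1A100005567V3 by 3.71 log2 units.

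Of 817 uc probes, 67 were higher and 107 lower in CS (21.3%), against 469 higher and 59 lower under 75th percentile scaling. Probes for both strands were tested for 355 elements. Of these, 9 elements were lower and 2 higher on both strands, 8 had opposite calls, 124 were called on 1 strand and 212 on neither. uc.247+_P1V3 rose most, to 7.48, 8.60 and 7.02 from 3.48, 3.81 and 3.64 (log2 change 4.06, SE 0.36, adjusted p = 0.000394), followed by uc.159+_P1V3 (2.02) and uc.378-_P1V3 (1.67). uc.47-_P1V3 fell most, to 4.94, 4.98 and 5.07 from 8.77, 8.86 and 9.32 (log2 change −3.99, SE 0.15), followed by uc.186-_P1V3 (−2.13) and uc.191-_P1V3 (−1.92).

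The 134 other custom probes, 102 named ASSPINKEIN and 32 named CUST, were higher on the whole, with a median change of 0.22, 33 higher and 6 lower. The median excess over the control mean was 0.29, 0.11 and 0.20 on CS 1, CS 2 and CS 3. ASSPINKEIN100004873 rose by 0.89, CUST_6_PI421900130 by 0.82 and CUST_2_PI421900130 by 0.77 log2 units, while ASSPINKEIN100005375 fell by 2.13, CUST_8_PI421900130 by 0.81 and ASSPINKEIN100006756 by 0.70.

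**Figure D3:**
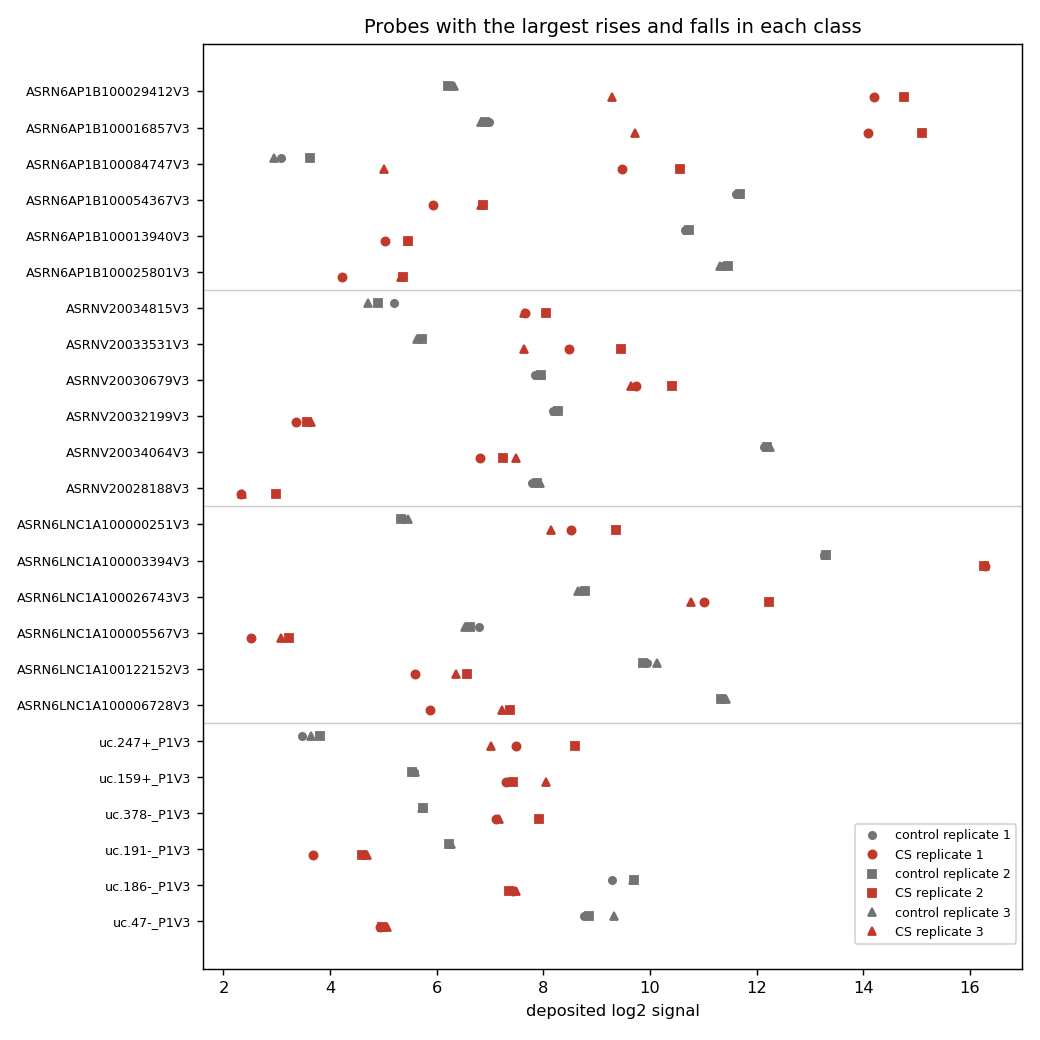
Deposited log2 signal on each array of the probes with the 3 largest rises and falls in the ASRN6AP, ASRNV, ASRN6LNC and uc classes (CS red, control grey). The 3 top rises of ASRN6AP have CS 3 between the other CS arrays and the controls, while the ASRN6AP falls have the CS arrays closer together.

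Median changes differed little between classes. They were 0.07 in ASRN6AP, 0.02 in ASRNV, 0.08 in ASRN6LNC and 0.06 in uc, against quartiles of −0.21 and 0.27 over all probes. The 48 catalogue probes tested stood lower, with a median of −0.24, and by array −0.30, −0.32 and −0.23 on CS 1, CS 2 and CS 3. Under 75th percentile scaling their median was −0.13, against 0.44 over all probes.

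Signal level went with the share of probes that passed. With tested probes in 10 equal bins of mean signal, it was 12.9% in the dimmest bin, 53.9% in bin 9 and 48.1% in the brightest. The median size of change, regardless of sign, grew from 0.20 in the dimmest bin to 0.39 in bin 8, while the median CS SD went from 0.24 to 0.17 and the control SD from 0.16 to 0.05. In the deposited values dim probes thus differed less between the groups and varied more between arrays of a group. The median signed change stayed between 0.03 and 0.11 in each bin in the deposited values. Under 75th percentile scaling it was 0.68 in the dimmest bin and 0.05 in bin 8. The share called higher then was 56.0% in the dimmest bin, against 6.95% in the deposited values, and 29.9% in bin 8, against 27.1%.

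**Figure D4:**
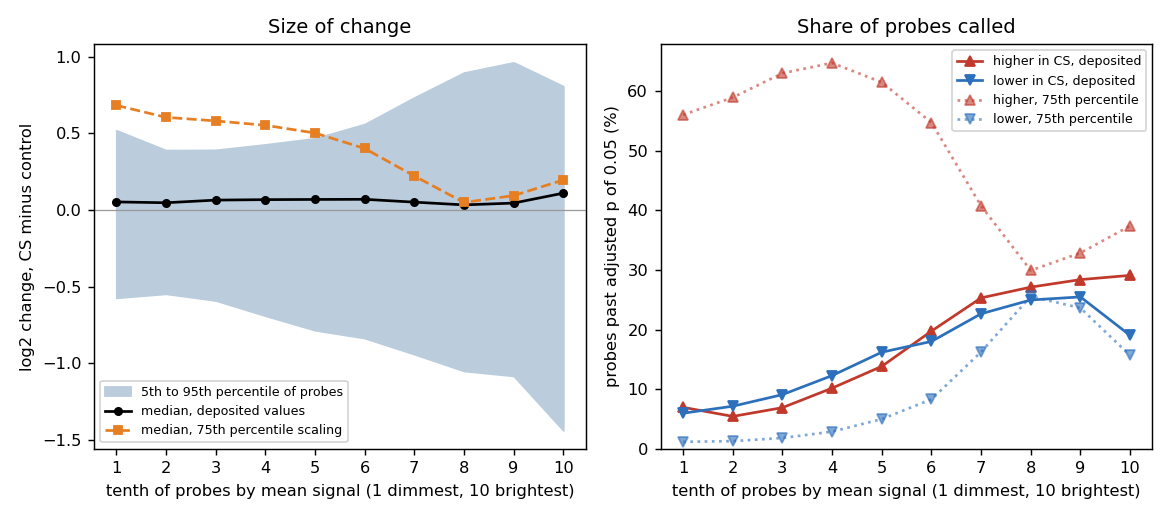
Left, log2 change by bin of mean signal, with the median in the deposited values (black), the range from the 5th to the 95th percentile (band) and the median under 75th percentile scaling (orange). Right, share of probes that passed in each direction under both scalings. In the deposited values 6.95% were higher and 5.97% lower in bin 1, and 28.4% higher and 25.5% lower in bin 9.

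Level and class are tied, since the median level was 6.57 for ASRN6AP, 4.98 for ASRNV, 5.31 for ASRN6LNC and 4.42 for uc. Among the 3 dimmest bins, the shares called were 14.7%, 13.4%, 11.9% and 13.5% in these classes. In the middle 4 bins they were 35.1%, 32.5%, 31.7% and 39.6%, and in the brightest 3 bins 51.2%, 55.8%, 47.5% and 62.5%. Over all bins the classes ran from 21.3% to 36.8%. The direction still differed among bright probes: 7 of 48 bright uc probes were higher and 23 lower, and in ASRNV 113 of 450 were higher and 138 lower, whereas in ASRN6AP 2944 of 10298 were higher and 2331 lower. These class differences were not tested.

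**Figure D5:**
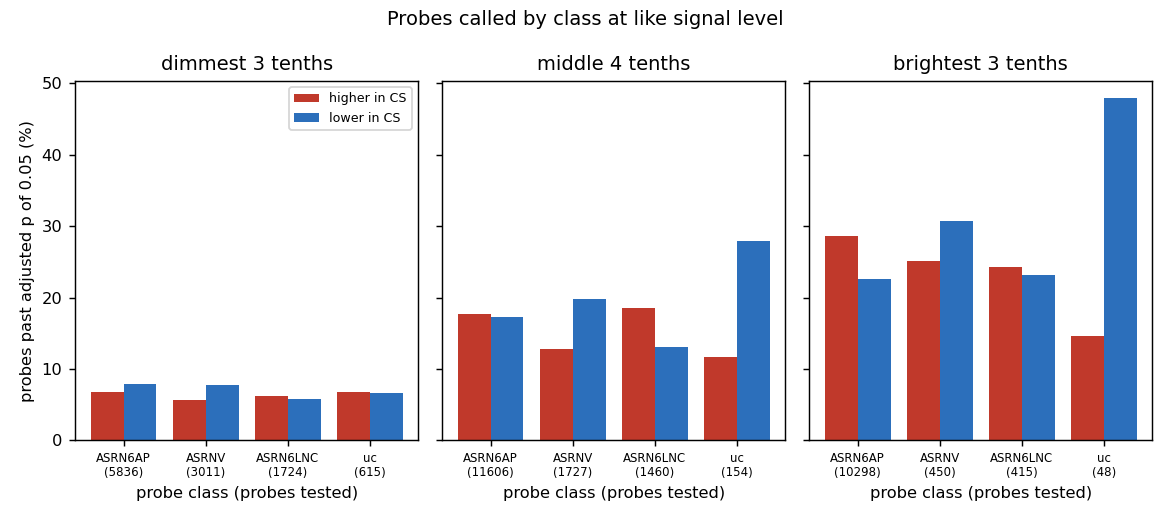
Share of tested probes that passed, higher (red) or lower (blue) in CS, by probe class within the dimmest 3, middle 4 and brightest 3 bins of signal, with the number tested in brackets. Shares are alike among dim probes (11.9% to 14.7% together) and reach 62.5% in the 48 bright uc probes.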

How the data were processed

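Each sample was 1 array. Per the labels' protocols, TRIzol was used for extraction and Quick Amp reagents for labelling. The authors' deposited values are log2 signals, 1 per probe, with nearly equal distributions over the arrays, and each array's correlation with its own log2 scanner values was 0.997 to 0.999. The deposited scanner files hold intensity on a linear scale, per the file headers made and background subtracted with version 11.0.1.1 of Feature Extraction. Their deposited flags are other values of 0 or 1, and no spot was saturated. The normalization method is not given in the sources used here.

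Probes were tested where at least 50% of unflagged spots were well above background on all 3 arrays of either group. limma 3.58.1 in R 4.3.3 (lmFit, eBayes, two-sided) was fitted to the 6 arrays on the deposited values, with Benjamini-Hochberg adjustment over all tested probes. The 3 arrays per group limit the precision. Every catalogue gene with a symbol that passed is named, as are the 3 largest rises and falls of each other class among probes that passed with the same sign and no overlap in both the deposited values and 75th percentile scaling. Members, lists and tests were chosen with earlier results of these data known. Alternatives were 75th percentile scaling, quantile normalization and median centring of the scanner signal, normexp (offset 50, then quantile normalized), other filters on dim probes, all 9 arrays, a trended robust variance, array weights, a 2-fold minimum, the replicate number or slide as a block, averaged controls and leaving out each array. Slides were taken from the scan date in the file headers. Promoter letters come from RefSeq (GRCr8). Probe sequences were not used here.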

Additional observations from a re-analysis of the deposited data

How the results depend on the processing

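The count of called probes (12526) was 22495 under 75th percentile scaling, 19582 with array weights, 1814 with a 2-fold minimum, 5948 with the slide as a random block, 532 with the controls as 1 sample and 7279 to 14387 when an array was left out. Named genes that passed (19) were 1 with the 2-fold minimum, 10 with the slide block, 0 with the controls as 1 sample (limma, 12 at an unadjusted p below 0.05) and 12 to 21 when an array was left out. Nlrp3 turned to 0.17 under 75th percentile scaling. In the dimmest of 10 signal bins 485 probes passed, 2146 under 75th percentile scaling, 770 after median centring, 75 with normexp, 308 when detection on all 6 arrays was required and 213 to 657 when an array was left out. In the brightest bin 1806 passed, and 1129 to 1943 when an array was left out.

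Class medians relative to all probes, in the deposited values and then under 75th percentile scaling or median centring, which shift all probes alike, were 0.006 and −0.047 for ASRN6AP, −0.045 and 0.081 for ASRNV, 0.018 and 0.117 for ASRN6LNC, −0.0062 and 0.164 for uc, −0.301 and −0.576 for catalogue probes and 0.155 and 0.272 for other names. With normexp they were 0.0020 for ASRN6LNC, −0.018 for ASRNV, −0.245 for catalogue probes and 0.055 for other names, and ASRN6AP was at 0.0078 without a filter. Leaving out an array gave 0.0053 to 0.0075 (ASRN6AP), 0.014 to 0.029 (ASRN6LNC), −0.052 to −0.040 (ASRNV), −0.342 to −0.272 (catalogue), 0.098 to 0.163 (other) and −0.024 to −0.0043 (uc). The causes were not tested.

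With the replicate block, 9450 probes and 14 of the 29 genes passed. The labels do not say what a number shares, and the deviations of same-numbered arrays correlated at −0.143, −0.0647 and −0.0508. Array precision is limited by 3 arrays per group and, for dim probes, by signal near background.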
